A study of Mus musculus with 8 samples.

Results

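The miR-221 and miR-222 hairpins form a tight pair on the mouse X chromosome, and each gives a mature microRNA (miRNA) from its 5′ side (5p arm) and from its 3′ side (3p arm). The 4 arms, mmu-miR-221-5p, mmu-miR-221-3p, mmu-miR-222-5p and mmu-miR-222-3p, were taken by name from the 1907 mature miRNAs listed, and all 4 had reads in each of the 6 small RNA libraries. Libraries were from wild-type bone marrow-derived macrophages of mice aged 8 to 12 weeks, grown from bone marrow for 6 days with L929 supernatant, which supplies macrophage colony-stimulating factor. In 3 libraries the cells had received LPS, a bacterial endotoxin sensed through Toll-like receptor 4, at 100 ng/ml for 3 h, and the other 3 libraries were from cells left unstimulated. Cells of both groups were differentiated in the same medium, and the labels do not say whether the libraries of a group came from separate mice or cultures. P-values therefore measure only the spread between these libraries, which may be technical.

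A miRNA guides Argonaute to messenger RNAs mainly through its seed, bases 2 to 8. Usually 1 arm of a hairpin is retained in Argonaute and the other is degraded, so the ratio of the arms is a measure in its own right. miR-221-3p and miR-222-3p are known for repressing the cell cycle inhibitor Cdkn1b (p27) and the receptor Kit, and in mouse macrophages miR-222 has been reported to lower the chromatin remodeller Brg1 after LPS.

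The mature sequences (RefSeq, GRCm38.p6) are shown because the 3p arms share a seed and the 5p arm of miR-221 does not; bases 2 to 8 are in capitals.
miR-221-3p: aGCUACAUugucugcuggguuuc
miR-222-3p: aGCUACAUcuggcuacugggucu
miR-221-5p: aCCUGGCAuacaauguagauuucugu

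The 3p arms have their first 8 bases in common and match at 11 of 23 positions when aligned from the 5′ end, so a read of full length tells them apart. Among 1679 mature mouse miRNA names in the RefSeq table, the seed GCUACAU occurred in 1 more, miR-1928, which had 0 counts in all 6 libraries. No other name had the seed CCUGGCA of miR-221-5p. For miR-222-5p that table held no mature sequence, so its seed was not searched. Of the 1907 miRNAs listed, 1623 matched a name there, and the seeds of the rest were not searched.

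Both hairpins lie on the minus strand, miR-222 at chrX:19146893-19146971 and miR-221 at chrX:19146294-19146388, with 504 bases between them. No other gene in the RefSeq table of GRCm38.p6 overlapped this span. The hairpins are given to show the setting of the 3p arms, which are in capitals.
miR-222 hairpin: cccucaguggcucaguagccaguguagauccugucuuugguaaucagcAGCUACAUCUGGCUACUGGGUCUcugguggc
miR-221 hairpin: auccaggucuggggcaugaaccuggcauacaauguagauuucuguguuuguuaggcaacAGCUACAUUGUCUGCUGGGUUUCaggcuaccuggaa

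Library totals ran from 3280688 to 4105395 miRNA counts after LPS and from 3912296 to 4312555 in unstimulated cells. Levels below are CPM, counts brought to a common library size with TMM factors, which adjust the library totals so that most miRNAs do not shift. One read stands for 1 mature miRNA whatever its length. The 6 arms listed here for macrophages and myeloid cells held 27.7% to 31.0% of counts after LPS and 27.1% to 31.3% in unstimulated libraries. Most of these counts were those of 1 arm, miR-22-3p (814208 to 900383 after LPS and 927618 to 1003198 in unstimulated libraries). The share therefore mainly describes that arm and does not identify the cell type. Another of the 6, miR-142a-3p, was listed at 0 counts throughout. How reads were assigned to miRNAs is not given in the sources used here, so a count of 0 in this table need not mean that a miRNA was missing from the cells. Of the 5 endothelial and progenitor markers, miR-126a-3p and miR-126a-5p had at most 1 count in any library. Against this, miR-99a-5p had 9251 to 12208 counts after LPS and 11585 to 14073 in unstimulated libraries. The rest of this list had 29 to 274 counts per arm and library. The 4 erythroid markers summed to 2 to 5 counts after LPS and 0 to 2 in unstimulated libraries. Ligation and amplification of small RNAs differ between sequences, so an order of levels between different miRNAs describes reads and may differ from the order in the cells, which was not tested.

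The miR-221 and miR-222 arms were higher after LPS, but by very different amounts. miR-222-5p was 3.30-fold higher, miR-221-5p 1.90-fold and miR-222-3p 1.43-fold, and these 3 arms rose by the test over all miRNAs. miR-221-3p, the most abundant of the 4, was 1.09-fold higher and did not pass. Each scarce 5p arm thus had a larger fold change than its abundant 3p partner. In bulk libraries, more cells carrying a miRNA and more miRNA per cell cannot be told apart.

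**Figure D1:**
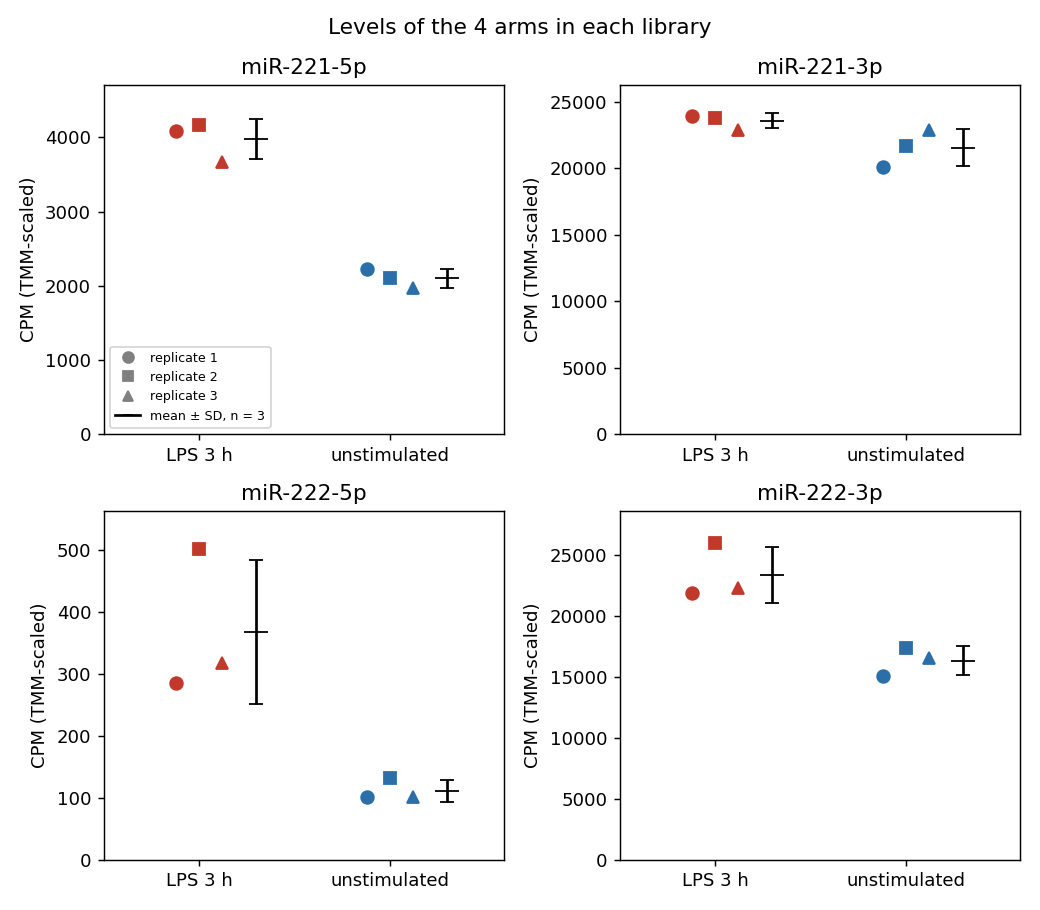
Level of each arm in CPM (y axes start at 0) in the 3 LPS libraries (red) and the 3 unstimulated libraries (blue), with the mean and SD in black. LPS libraries lie well above unstimulated ones for both 5p arms and for miR-222-3p, while the miR-221-3p points of the groups nearly touch (22931 against 22866 CPM).

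Among the 3p arms, which carry the shared seed, miR-222-3p had 21877, 25999 and 22277 CPM in LPS replicates 1, 2 and 3, against 15065, 17386 and 16597 CPM in unstimulated replicates 1, 2 and 3. Every LPS library lay above every unstimulated one, and replicate 2 was the highest of each group. The means were 23385 ± 2273 CPM after LPS and 16349 ± 1180 CPM in unstimulated cells (SD, n = 3 each). The log2 fold change was 0.52 (SE 0.11, 95% confidence interval 0.28 to 0.75, edgeR quasi-likelihood test with Benjamini-Hochberg adjustment over 357 miRNAs, adjusted p = 0.0176). This call was close to the threshold. It ended with upper-quartile scaling (adjusted p = 0.0628) and with library totals alone (0.0690), and also without LPS replicate 2 (0.0551) or without unstimulated replicate 1 (0.0995), 2 (0.0530) or 3 (0.0851). The adjusted p ranged from 0.000204 to 0.0995 over the alternatives for miR-222-3p, and the log2 fold change from 0.42 to 0.60.

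miR-221-3p had 23988, 23815 and 22931 CPM in LPS replicates 1 to 3, against 20127, 21722 and 22866 CPM in unstimulated replicates 1 to 3. The lowest LPS library lay just above the highest unstimulated library, but as a share of raw library totals the groups overlapped. That share was 2.31%, 2.43% and 2.20% after LPS and 1.97%, 2.29% and 2.35% in unstimulated libraries, with means of 2.32% ± 0.116 and 2.20% ± 0.207 (SD, n = 3 each). The log2 fold change was 0.13 (SE 0.09) with a 95% confidence interval of -0.08 to 0.33 (edgeR adjusted p = 0.800). It ranged from 0.04 (without unstimulated replicate 1) to 0.21 (without unstimulated replicate 3) over the alternatives for miR-221-3p, and was 0.07 with upper-quartile scaling. The upper bound of the interval lies below the lower bounds of miR-221-5p (0.69) and miR-222-5p (1.25). It lies above that of miR-222-3p (0.28), so the intervals of the 3p arms overlap.

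Of the 5p arms, the partner strands of the same hairpins, miR-221-5p had 4088, 4172 and 3671 CPM in LPS replicates 1 to 3, against 2223, 2098 and 1972 CPM in unstimulated replicates 1 to 3. The gap between the groups was far wider than the spread within either, since the lowest LPS value was 1.65 times the highest unstimulated value. The means were 3977 ± 268.3 CPM after LPS and 2098 ± 125.3 CPM in unstimulated cells (SD, n = 3 each). The log2 fold change was 0.92 (SE 0.10, 95% confidence interval 0.69 to 1.16, edgeR adjusted p = 0.000378).

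miR-222-5p was the scarcest arm, with 899, 2043 and 1249 counts in LPS replicates 1 to 3, against 425, 541 and 418 counts in unstimulated replicates 1 to 3. In CPM these were 284.6, 500.7 and 316.9 after LPS and 100.9, 131.3 and 101.3 in unstimulated cells. The lowest LPS level was 2.17 times the highest unstimulated level, and LPS replicate 2 was well above the other LPS libraries. The means were 367.4 ± 116.6 CPM after LPS and 111.2 ± 17.4 CPM in unstimulated cells (SD, n = 3 each), so the LPS libraries had a coefficient of variation of 31.7%, against 2.40% for miR-221-3p in the same libraries. The log2 fold change was 1.73 (SE 0.21, 95% confidence interval 1.25 to 2.20, edgeR adjusted p = 0.000462) and was 1.44 without LPS replicate 2.

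Over all 357 tested miRNAs, 13 (3.64%) rose by this test and 5 (1.4%) fell (8 and 5 with upper-quartile scaling), and 3 of the 13 were miR-221 and miR-222 arms. The median log2 fold change was 0.72 over the 4 arms and 0.01 over all tested miRNAs. All 3 LPS libraries lay above all 3 unstimulated libraries in CPM for 4 of the 4 arms, and for 8.68% of tested miRNAs. For miR-221-3p this held only narrowly (22931 against 22866 CPM) and not as a share of raw library totals. Sorted by log2 fold change, miR-222-5p was at place 7, miR-221-5p at 14, miR-222-3p at 25 and miR-221-3p at 93 of 357.

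**Figure D2:**
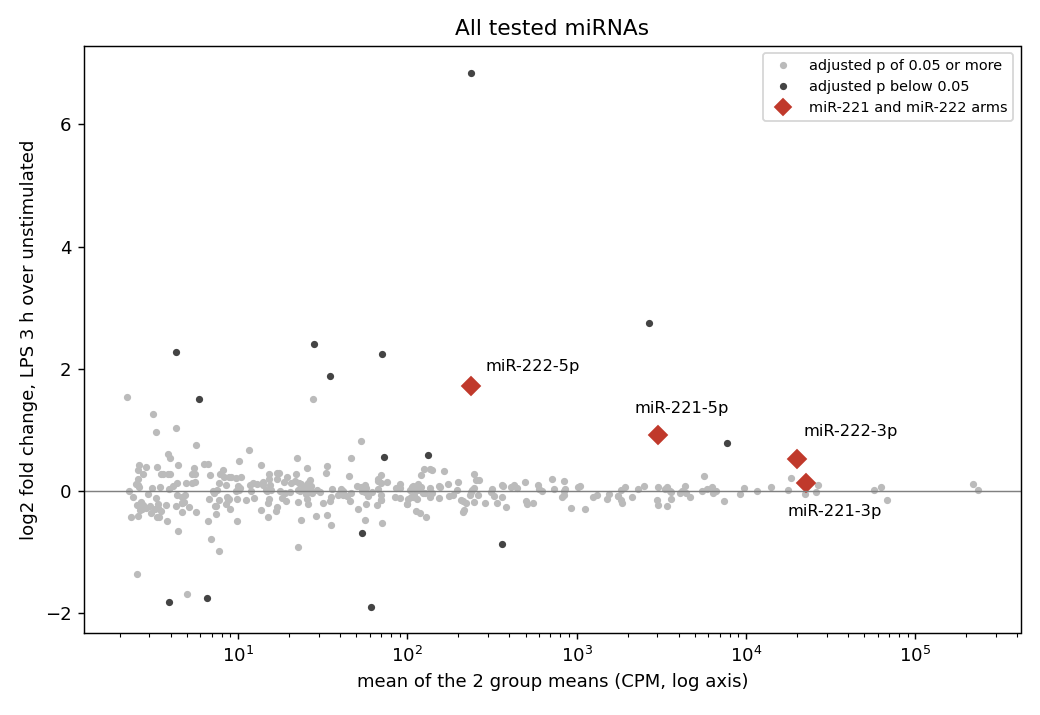
Log2 fold change of LPS over unstimulated cells against mean level (CPM, log axis) for the 357 tested miRNAs, with the miR-221 and miR-222 arms as red diamonds. The fold change is smaller for the more abundant arms, from 1.73 for miR-222-5p down to 0.13 for miR-221-3p.

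In the order of read counts, the 3p arms stood near the top of the deposited list. miR-221-3p took place 8 or 9 in every library. miR-222-3p took places 7 to 10 after LPS and 10 to 12 in unstimulated libraries. By the mean of all 6 libraries, miR-221-3p stood between miR-30d-5p (25821 ± 557.2 CPM after LPS and 26094 ± 859.4 CPM in unstimulated cells) and miR-10a-5p (22006 ± 1023 and 22879 ± 4262 CPM). miR-222-3p came just below miR-10a-5p and above miR-146a-5p (19759 ± 3134 CPM after LPS and 17084 ± 1060 CPM in unstimulated cells). The means of miR-222-3p and miR-146a-5p in unstimulated cells differed by less than the SD of either, as did those of miR-221-3p and miR-10a-5p.

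The 5p arms moved further up this order. miR-221-5p took places 27 to 32 after LPS, against 41 to 43 in unstimulated libraries. Its neighbours by mean level were miR-301a-3p, at 3352 ± 553.9 CPM after LPS and 3269 ± 174.9 CPM in unstimulated cells, and miR-151-3p, at 2794 ± 238.9 and 3276 ± 954.5 CPM. miR-222-5p took places 69 to 84 after LPS and 114 to 136 in unstimulated libraries. It stood between miR-18a-5p, at 244.0 ± 22.7 CPM after LPS and 240.9 ± 6.63 CPM in unstimulated cells, and miR-155-3p, the partner strand of the LPS-induced miR-155, at 474.3 ± 28.1 and 4.08 ± 2.24 CPM.

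The next comparison asked whether the arms of each hairpin changed equally. They did not: in both hairpins the 5p arm gained on the 3p arm after LPS. For miR-221 the 5p arm made up 14.4% ± 0.567 of the hairpin's reads after LPS and 8.90% ± 1.01 in unstimulated cells (SD, n = 3 each). For miR-222 it made up 1.53% ± 0.321 after LPS and 0.674% ± 0.0717 in unstimulated cells. The 3p arm held most of the reads of both hairpins in every library.

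By library, the miR-221-5p share was 14.6%, 14.9% and 13.8% in LPS replicates 1 to 3, against 9.95%, 8.81% and 7.94% in unstimulated replicates 1 to 3. The miR-222-5p share was 1.28%, 1.89% and 1.40% in LPS replicates 1 to 3, against 0.665%, 0.749% and 0.607% in unstimulated replicates 1 to 3. The groups did not overlap for either hairpin. Over the 100 hairpins with both arms past the filter, the 5p share of all 3 LPS libraries lay above that of all 3 unstimulated libraries in 6%. It lay below in 13 hairpins, and the groups overlapped in 81. Counting error was small beside these gaps: the lowest LPS share of miR-222-5p had a 95% Wilson interval of 1.20% to 1.37%, and the highest unstimulated share one of 0.689% to 0.815%. For miR-221-5p the corresponding intervals were 13.6% to 14.0% and 9.76% to 10.1%. Reads carry no molecular identifiers, so these intervals cover counting error only.

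Expressed as a ratio, LPS replicates 1 to 3 held 76.9, 51.9 and 70.3 reads of miR-222-3p per read of miR-222-5p, against 149.3, 132.4 and 163.8 in unstimulated replicates 1 to 3. For miR-221 there were 5.87, 5.71 and 6.25 reads of the 3p arm per 5p read after LPS and 9.05, 10.4 and 11.6 in unstimulated libraries. The arm ratio of reads therefore differed between the hairpins in both conditions, with miR-222 the more one-sided in each of the 6 libraries. Since ligation and amplification differ between sequences, the ratio in the cells may differ and was not tested.

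**Figure D3:**
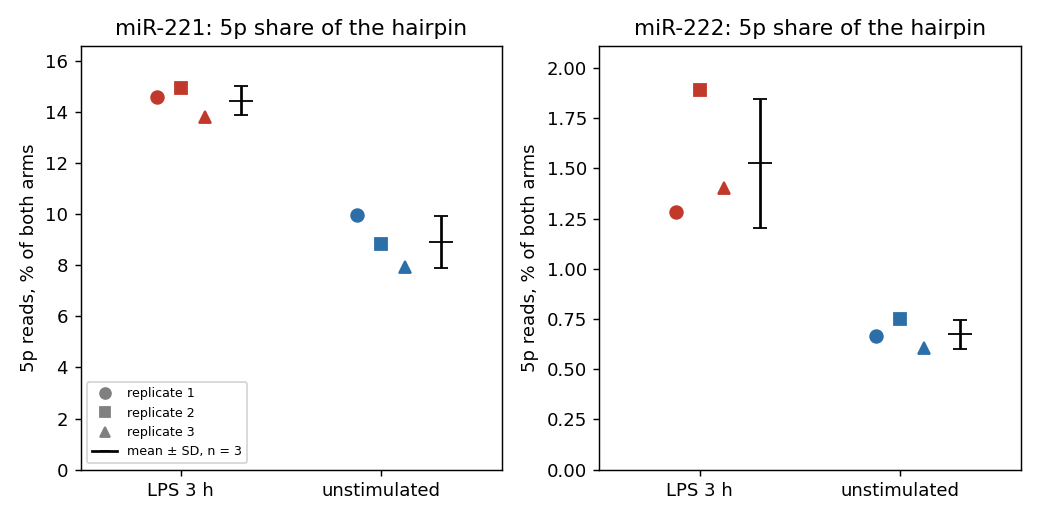
Reads of the 5p arm as a percent of the reads of both arms (y axes start at 0 and differ in scale) for miR-221 and miR-222 in the LPS (red) and unstimulated (blue) libraries, with mean and SD in black. All 3 LPS libraries lie above all 3 unstimulated libraries in both hairpins, and LPS replicate 2 of miR-222 is the highest at 1.89%.

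The test of the arm ratio was limma on log2 CPM of the 5p arm minus that of the 3p arm in each library, fitted over the 100 hairpins with both arms past the filter. The difference between arms was 1.17 (SE 0.19, 95% confidence interval 0.77 to 1.57, limma adjusted p = 0.000232) for miR-222 on the log2 scale, LPS minus unstimulated. For miR-221 it was 0.79 (SE 0.16, 95% confidence interval 0.46 to 1.13, limma adjusted p = 0.00195). Of the 100 hairpins 12% passed, and miR-222 and miR-221 had the sixth and the seventh smallest p. Without the variance trend 7 hairpins passed, with miR-222 and miR-221 among them. Both stayed past the threshold in all 11 alternatives tried for the arm ratio, with adjusted p up to 0.00912 for miR-222 and 0.0283 for miR-221.

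With miR-221 and miR-222 themselves counted, the scarcer arm gained on its partner in 9 of the 12 hairpins that passed (9% of all 100). It did so in 6 of the 7 that passed without the variance trend, again with this pair counted. The arm that gained was the 5p in 3 of these 9 (miR-221, miR-222 and miR-674) and the 3p in the other 6. Over all 100 hairpins the less abundant arm had a median gain of 0.03 on the log2 scale, with 53 above 0.

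**Figure D4:**
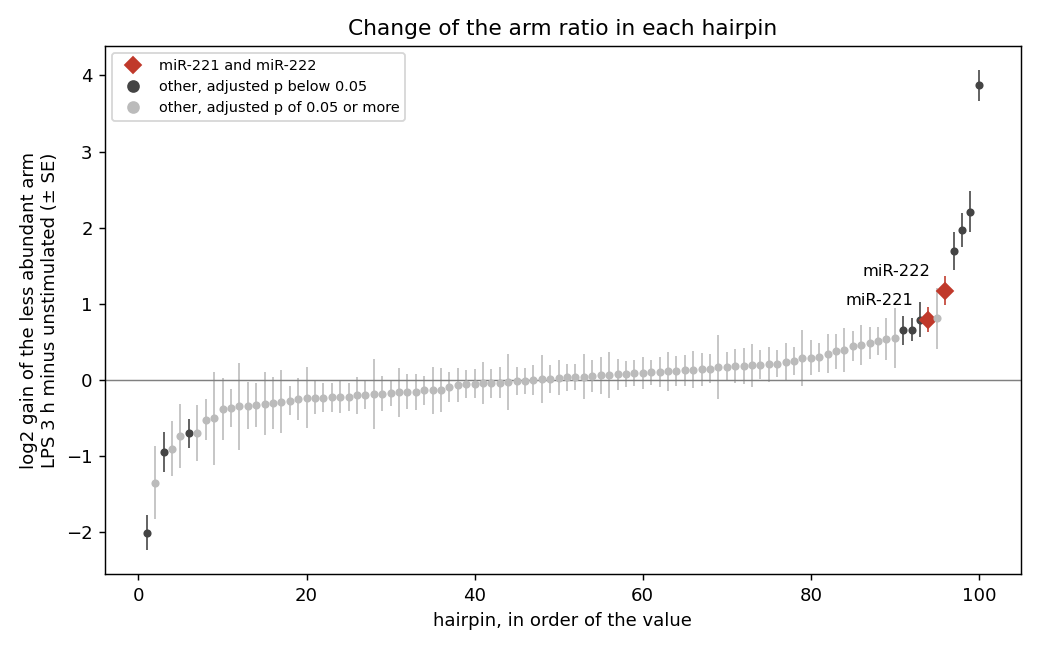
Gain of the less abundant arm over the abundant arm after LPS (log2 difference, LPS minus unstimulated, bars show SE) for the 100 hairpins in order of the value. miR-222 at 1.17 and miR-221 at 0.79 (red diamonds) lie near the upper end, above the median of 0.03.

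The balance between the hairpins was compared next, using the ratio of their counts within each library, which needs no scaling. In both arms miR-222 was higher relative to miR-221 in the LPS libraries. With 3 against 3 libraries the exact permutation test of this cannot give a p below 0.1. The ratio of miR-222-3p to miR-221-3p was 0.912, 1.09 and 0.971 in LPS replicates 1 to 3, against 0.748, 0.800 and 0.726 in unstimulated replicates 1 to 3. LPS replicate 2 was the one library in which miR-222-3p outnumbered miR-221-3p. In unstimulated cells the 3p arms were well separated, at 16349 ± 1180 CPM for miR-222-3p and 21572 ± 1376 CPM for miR-221-3p. After LPS they differed by less than the spread of miR-222-3p, at 23385 ± 2273 and 23578 ± 566.8 CPM (SD, n = 3 each).

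Between the 5p arms there were 14.4, 8.33 and 11.6 reads of miR-221-5p per read of miR-222-5p in LPS replicates 1 to 3, against 22.0, 16.0 and 19.5 in unstimulated replicates 1 to 3. No LPS library reached the lowest unstimulated ratio. On the log2 scale the ratio of miR-222 to miR-221, LPS minus unstimulated, was higher by 0.38 for the 3p arms, 0.77 for the 5p arms and 0.31 for the arms summed. Each of these 3 differences, and that of the summed share below, had a two-sided exact permutation p of 0.1 (0.1 also after Benjamini-Hochberg adjustment over these 4 tests), the smallest that 3 against 3 libraries can give. Without LPS replicate 2 the log2 differences were 0.31 for the 3p arms, 0.56 for the 5p arms and 0.24 for the arms summed.

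Together the 4 arms held 4.84%, 5.57% and 4.72% of all miRNA counts in LPS replicates 1 to 3, against 3.67%, 4.35% and 4.27% in unstimulated replicates 1 to 3. The groups did not overlap, and the means were 5.04% ± 0.459 after LPS and 4.10% ± 0.376 in unstimulated cells (SD, n = 3 each). Split by hairpin, the miR-222 arms held 2.34% ± 0.322 after LPS and 1.68% ± 0.184 in unstimulated libraries, without overlap. The miR-221 arms held 2.71% ± 0.153 after LPS and 2.42% ± 0.202 in unstimulated libraries, where LPS replicate 3 fell within the unstimulated range.

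**Figure D5:**
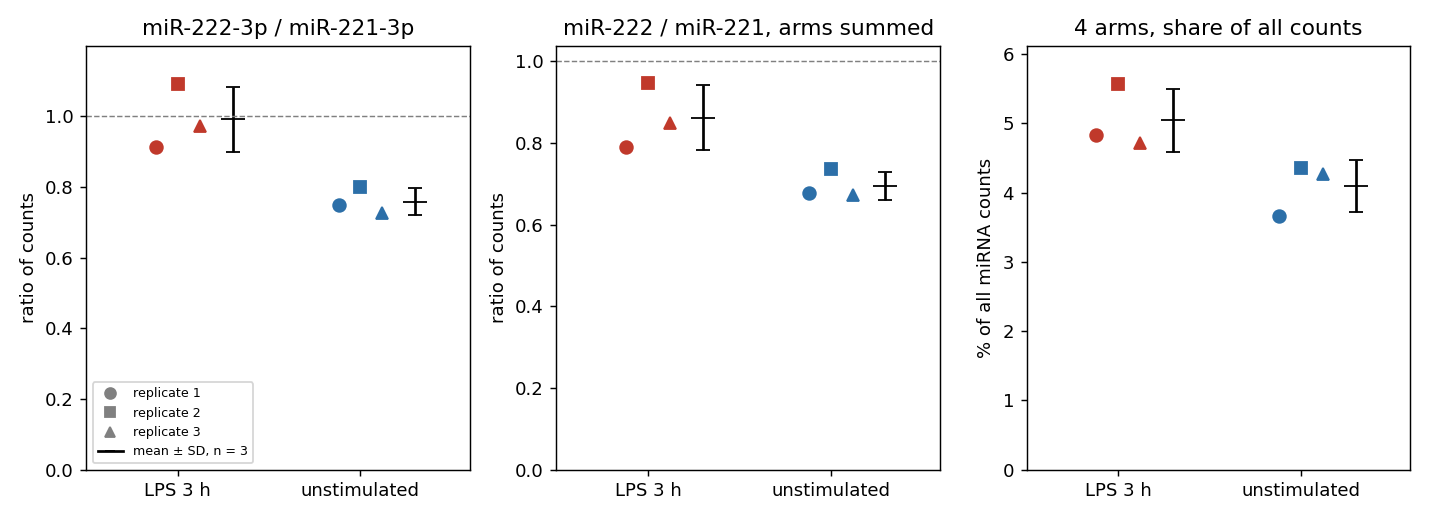
Ratio of miR-222-3p to miR-221-3p counts, ratio of miR-222 to miR-221 with arms summed, and share of all miRNA counts held by the 4 arms, in the LPS (red) and unstimulated (blue) libraries with mean and SD (y axes start at 0; the dashed line marks a ratio of 1). LPS libraries lie above unstimulated ones in each panel, and only LPS replicate 2 passes 1 in the ratio of 3p arms.

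In CPM the mean summed level was 11177 higher after LPS (51307 ± 2803 and 40130 ± 2266 CPM, SD, n = 3 each). miR-222-3p made up 62.9% of that difference, miR-221-3p 17.9%, miR-221-5p 16.8% and miR-222-5p 2.29%. The largest fold change and the largest share of added reads therefore belonged to different arms of the same hairpin, and the part of miR-221-3p comes from a difference that did not pass the test.

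Likeness of pattern was measured as Pearson's r of log2 CPM over the 6 libraries, among 251 other miRNAs with a mean of at least 10 CPM. The libraries and their group difference are shared by all such values, so r is given as a description. Among the 4 arms, r was 0.99 between miR-222-5p and miR-222-3p, 0.95 between the 5p arms, 0.82 between the 3p arms and 0.70 between miR-221-5p and miR-221-3p. let-7e-3p, a partner strand of a let-7 family hairpin, was most like both arms of miR-222 (r = 0.98 with miR-222-5p and 0.99 with miR-222-3p). It was followed by miR-674-5p (0.94) and miR-503-3p (0.93) for miR-222-5p, and by miR-146a-3p (0.94) and miR-503-3p (0.92) for miR-222-3p. For miR-221-5p the most alike were miR-155-3p (0.98), miR-125a-3p (0.98) and miR-674-5p (0.96). For miR-221-3p they were let-7c-1-3p (0.91), miR-146a-3p (0.87) and miR-125a-5p (0.87). Of the miRNAs named as alike, let-7e-3p, miR-146a-3p, miR-155-3p and miR-125a-3p rose by edgeR. The others did not pass: miR-674-5p (edgeR adjusted p = 0.200), miR-503-3p (0.330), let-7c-1-3p (0.626) and miR-125a-5p (0.759).

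Other miRNAs of related roles were counted by the same test, by which 3.64% of all 357 tested miRNAs rose and 1.4% fell. At these shares, 0 or 1 calls in lists of these lengths are near the background. Of 19 arms that LPS is reported to induce in macrophages, 15 were tested, 5 rose and 10 did not pass, with a median log2 fold change of 0.27. The rises with the smallest adjusted p were miR-155-3p (log2 fold change 6.85), miR-146a-3p (log2 fold change 2.41), miR-455-5p (log2 fold change 2.28) and miR-155-5p (log2 fold change 2.75). Of these, miR-455-5p was scarce in both groups, at 7.15 CPM after LPS and 1.44 CPM in unstimulated cells. Of 10 other miRNAs reported to repress the cell cycle inhibitors p21, p27 and p57, among them miR-148a-3p and miR-17-5p, 8 were tested and 0 passed by edgeR, 0 at an unadjusted p below 0.05 and 0 by DESeq2 or limma-voom, with log2 fold changes from -0.07 to 0.23 (median 0.04). Of the 41 other tested arms from hairpins on the X chromosome, 2 of which also match a hairpin on another chromosome, 0 rose and 1 fell by edgeR, DESeq2 and limma-voom, with a median log2 fold change of 0.01. The fall was that of miR-223-5p (log2 fold change -0.86), and 3 arms were higher at an unadjusted p below 0.05.

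Among the cell type markers 1 tested arm passed. In lists this short, that is near the share over all 357 tested miRNAs (3.64% rose and 1.4% fell). Of 5 tested macrophage and myeloid arms miR-223-5p fell and 4 did not pass (median 0.02). The 3 endothelial and progenitor arms and the 1 lymphocyte arm tested did not pass by edgeR (0 also at an unadjusted p below 0.05 and by DESeq2 or limma-voom), with medians of -0.09 and 0.20. The endothelial and progenitor list held 0.258% to 0.312% of counts after LPS and 0.296% to 0.352% in unstimulated libraries, nearly all of it miR-99a-5p. Lymphocyte markers summed to 245 to 294 counts after LPS and 237 to 294 in unstimulated libraries. Stromal markers summed to 4 to 9 counts after LPS and 1 to 9 in unstimulated libraries, and neither they nor the erythroid markers had enough counts to test.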

How the data were processed

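Small RNA libraries (TruSeq Small RNA kit, total RNA, per the labels' protocols) were deposited by the authors as raw counts, 1 whole number per mature miRNA. The build mm10 (GRCm38.p1) and the tools SAMtools 0.1.19 and Novoalign appear in the submitters' processing notes. Not given in the sources used here are the counting tool, the miRNA release and the treatment of reads with several matches. The 2 samples of a chromosome conformation assay were not analysed here. Names were matched to RefSeq (GRCm38.p6): 4 of 4 arms to a hairpin gene and 3 of 4 to a mature sequence, and 353 of 357 tested miRNAs to a hairpin gene.

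Counts were tested with edgeR 4.0.16 in R 4.3.3 (quasi-likelihood F test, TMM, filterByExpr with a minimum count of 10), which kept 357 miRNAs holding 99.974% of counts. TMM factors ran from 0.96 to 1.053. SE is the absolute log2 fold change over the square root of F. Calls were made at a Benjamini-Hochberg adjusted p below 0.05. Arm ratios were tested with limma 3.58.1 (prior count 2, variance trend on the less abundant arm). Single values were compared by exact permutation. DESeq2 1.42.0 and limma-voom were alternatives. Libraries of a group always differed by more than sampling noise (the lowest chi-square per degree of freedom was 53.0). Every arm had at least 418 counts in each library, so counting error is small beside the spread between libraries.

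The arms and lists were chosen with earlier results of these data known. Named besides the 4 arms are miRNAs sharing a seed, the 3 most alike in pattern per arm, the neighbours in level, and up to 4 passing members of each list. miR-22-3p, miR-142a-3p, miR-126a-3p, miR-126a-5p, miR-99a-5p, miR-148a-3p and miR-17-5p fall outside this rule and were chosen as list members after their values were seen.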

Additional observations from a re-analysis of the deposited data

How the results depend on the processing

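The rises of miR-221-5p and miR-222-5p kept their direction and passed in all 14 alternatives for each, and miR-221-3p passed in none of 14. The call of miR-222-3p was lost in 6 of 14. Its log2 fold change was 0.46 (upper-quartile factors) and 0.46 (library totals) and ran from 0.42 to 0.60 when 1 library was left out. Library totals moved the median of all tested miRNAs by -0.05 on the log2 scale, and upper-quartile factors by -0.06; why the call was lost was not tested. The split of calls was 13 higher and 5 lower, against 8 and 5 with upper-quartile factors and 9 and 2 without LPS replicate 3. The number of miRNAs called, 18, ranged from 11 (without LPS replicate 3) to 18 with 1 library left out. Without a variance trend, 7 in place of 12 hairpins passed for the arm ratio, miR-221 and miR-222 among them; the count ran from 8 (without LPS replicate 2) to 14 with 1 library left out. Shares and ratios between hairpins kept their direction in every alternative tried for them. Both groups carry replicate numbers 1 to 3, and the labels do not say what a number marks. Across miRNAs, deviations from the group means of same-numbered libraries correlated at 0.02, 0.14 and -0.04. They did not meet the bar of 0.1 in every pair, so the main tests did not treat the libraries as paired. Differently numbered libraries correlated at -0.15 to 0.14, so this check cannot decide whether the libraries were paired. For miR-222-5p the deviations had the same sign in all 3 same-numbered pairs, and its SE was 0.13 with a replicate block and 0.21 without. miR-222-3p also passed with the block (edgeR adjusted p = 0.0112). With a replicate block 17 miRNAs and 11 hairpins passed. Log2 fold changes with the block were 1.69 for miR-222-5p, 0.92 for miR-221-5p, 0.51 for miR-222-3p and 0.13 for miR-221-3p. The sign-flip test of the block gave p = 0.25 for the share and ratios, the smallest 3 pairs allow in an exact permutation. Depth limits miR-222-5p most, at 418 to 541 counts per unstimulated library.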
